A study of Homo sapiens with 8 samples.

Results

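The genes described here are 40 genes of the amino acid stress response driven by ATF4, chosen by name from a list of ATF4 pathway factors, amino acid synthesis and transport genes and tRNA synthetases. All 40 were present among the 26760 genes of the count table, and all 40 were among the 12303 genes with enough counts to be tested. RNA was sequenced in 8 libraries from LK2 cells, a line derived from a squamous carcinoma of the human lung, in 4 groups of 2. GFP cells carried pLEX_306-GFP (replicate 1) or pLEX_307-GFP (replicate 2), and DNp63 cells carried pLEX_306-DNp63 (replicate 1) or pLEX_307-DNp63 (replicate 2), so the 2 libraries of each of these groups differ in vector number. DNp63 is the form of the transcription factor p63 without its N-terminal activation domain. All 4 libraries of the inducible system carried pLIX_403-DNp63, a DNp63 vector under doxycycline control, and had 6 days without the drug (uninduced) or with 2 µg per ml of it (induced). No drug-treated group without a DNp63 vector was analysed here, so drug and DNp63 cannot be told apart in the induced cells. With different vectors, the 2 libraries of the GFP group, and those of the DNp63 group, came from different cultures. Whether the 2 libraries of an inducible group did is not given in the labels. P-values measure only the spread between these libraries, which may be technical in the inducible groups.

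The total count ranged from 2758158 to 10372248 per library. Levels are in CPM, counts scaled to a common library total. The overexpressed gene, TP63, had 0.739 and 1.91 CPM where GFP was expressed and, where DNp63 was, 1850.1 CPM in replicate 1 and 3816 CPM in replicate 2. It had 12.7 and 14.8 CPM in the uninduced and 412 and 422 CPM in the induced libraries. Of the squamous markers, KRT14 was at 0 in every library and KRT5 reached at most 0.635 CPM in the GFP, uninduced and induced libraries, against 398 and 18.8 CPM with constitutive DNp63. KRT6A had 2.22 to 5.93 CPM in the GFP and uninduced libraries, 24 and 26.2 CPM induced and 557 and 395 CPM with constitutive DNp63. The basal keratins of the labelled cell type were thus absent or nearly so in the control libraries, while SOX2 lay between 278 and 575 CPM there, at 337 and 278 CPM induced and at 68.3 and 96.4 CPM with constitutive DNp63. Markers of other cell types were low: 5 fibroblast markers summed to 8.28 to 30.5 CPM, nearly all COL1A1, with COL3A1 and DCN at 0 everywhere. The 4 immune markers summed to 0 to 3.49 CPM with CD3E at 0 everywhere, and the 4 endothelial markers to 0 to 2.33 CPM with PECAM1 and CDH5 at 0 everywhere.

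ATF4 is a transcription factor that cells make when protein synthesis is slowed through phosphorylation of the initiation factor eIF2, as happens when amino acids run short or unfolded proteins build up. Its amount is set largely by translation of its mRNA, and it switches on genes that import amino acids, make serine, glycine and asparagine, charge tRNAs and, under prolonged stress, stop growth or promote cell death. ATF4 binds DNA as a pair with C/EBP or related factors, at elements that join a part of each factor's site.

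Such an element, TGATGNAA, was searched on both strands in the 250 bases before the start site in the RefSeq promoter table (GRCh38.p14), in which 32 of the 40 genes were found. It was present in 4 of these 32 (12.5%) and in 1104 of all 35116 promoters of the same length (3.14%), a description without a test. Only the first listed promoter of each of the 32 genes was searched, while the 35116 count every listed promoter. The 4 stretches are shown because they hold the matches, in 3 genes that were called in the comparison of vectors described next (ASNS, CHAC1 and ATF3) and 1 that was not (AARS). DDIT4, CTH and TRIB3, which were also called, had no match in this window. Each is 60 bases long, written 5′ to 3′ on the gene's own strand, and the capitals mark the match, which in CHAC1 and AARS is to the reverse complement, TTNCATCA. The ASNS stretch (chr7:97872443-97872502, minus strand) has its match starting 68 bases before the start site. The others lie at chr15:40953236-40953295 (CHAC1, plus strand), chr1:212565190-212565249 (ATF3, plus strand) and chr16:70289660-70289719 (AARS, current symbol AARS1, minus strand).
ASNS: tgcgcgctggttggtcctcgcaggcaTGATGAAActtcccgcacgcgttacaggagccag
CHAC1: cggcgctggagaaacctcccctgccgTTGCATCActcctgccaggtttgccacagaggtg
ATF3: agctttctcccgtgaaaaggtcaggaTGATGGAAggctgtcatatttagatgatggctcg
AARS: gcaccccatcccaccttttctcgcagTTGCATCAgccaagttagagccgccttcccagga

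Across the 8 libraries the 40 genes were highest in the DNp63 library with pLEX_306 and lowest in the GFP library with pLEX_307. The first held the highest level of 27 of the 40 genes (22.2% of all tested genes), and the second the lowest level of 20 (13.8% of all tested genes). The median over the 40 genes of the log2 level relative to each gene's own mean was 0.63 and −0.62 in the GFP libraries with pLEX_306 and pLEX_307, and 1.14 and 0.38 in the DNp63 libraries with the same vectors. It was −0.37 and −0.31 in the uninduced and −0.39 and −0.32 in the induced libraries. Over all tested genes these medians lay between 0.0049 and 0.0154. In bulk RNA a change of level in each cell and a change in the share of cells with a high level cannot be told apart.

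**Figure D1:**
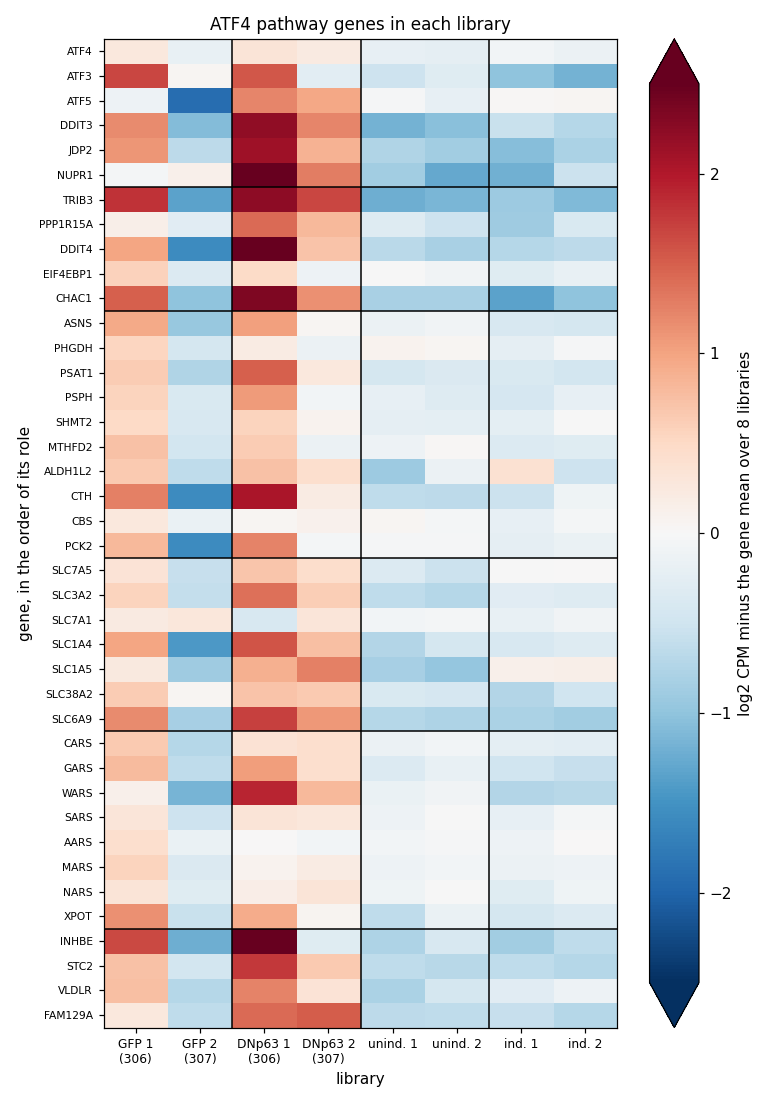
Level of each of the 40 genes (rows, in the order of their roles, separated by lines) in each of the 8 libraries (columns), as log2 CPM minus the mean of that gene over the 8 libraries, with red above and blue below the mean. Most rows are red in both pLEX_306 libraries and in the DNp63 library with pLEX_307, and blue in the GFP library with pLEX_307 and the 4 inducible libraries.

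Of the 6 comparisons made, the one between the 2 vector numbers of the constitutive system had the largest median difference. It also had the most calls, but its model leaves the gap between vectors out of the error, and that of the others does not. With 1 model for all (the replicate block defined below), 20 of the 40 genes were called higher with pLEX_306 (1.21% of all tested genes). In that model 19 were called higher with constitutive DNp63 (5.79%). Most of the 40 genes had higher levels with pLEX_306 than with pLEX_307, by a median log2 gap of 1.24 in GFP cells and 0.62 in DNp63 cells. Higher with pLEX_306 in both were 32 of the 40 genes, against 28.1% of all tested genes. A model with a term for vector number called 23 of the 40 genes higher with pLEX_306 (57.5%) and none lower, where 2.39% of all tested genes were called higher and 1.58% lower (edgeR quasi-likelihood test, Benjamini-Hochberg adjustment over all tested genes, called at an adjusted p below 0.05). The error in that model comes from the inducible pairs and from how far the vector gaps with GFP and with DNp63 differ. The median log2 difference was 0.98 over the 40 genes and −0.01 over all tested genes. Vector number, replicate number and whatever the same-numbered cultures shared cannot be told apart here. TP63 itself was lower with pLEX_306, by −1.06 ± 0.20 on the log2 scale (adjusted p = 0.0135), and its part in the difference was not tested.

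ATF4 mRNA itself had 1246 CPM (pLEX_306) and 912 CPM (pLEX_307) with GFP, and 1289 and 1212 CPM with DNp63. Its log2 difference between vectors, 0.27 ± 0.15 (SE, n = 2 per vector number), did not pass the test (adjusted p = 0.336). DDIT3, which encodes the stress factor CHOP, had 119 and 24.6 CPM with GFP and 245 and 123 CPM with DNp63. The pLEX_306 library was thus the higher in each pair, and the log2 difference was 1.58 ± 0.25 (adjusted p = 0.00583). ATF3, a stress-induced factor of the same bZIP class, had 127 and 41.1 CPM with GFP and 118 and 33.4 CPM with DNp63. Its 2 libraries with pLEX_306 stood well above all other libraries, of which the next highest was the GFP library with pLEX_307, and the log2 difference was 1.73 ± 0.18 (adjusted p = 0.000574). JDP2, a repressor that pairs with ATF3 and AP-1 factors, also rose with pLEX_306, by 1.49 ± 0.20 on the log2 scale (adjusted p = 0.00252). NUPR1, a small stress-induced chromatin protein gene, was not called (0.60 ± 0.30; adjusted p = 0.294), and its GFP libraries were in the opposite order, at 50.2 CPM with pLEX_306 and 56.5 CPM with pLEX_307.

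Among genes that curb the response or slow growth, 4 of 5 were called higher with pLEX_306. TRIB3, a pseudokinase that dampens ATF4, had 408 and 46.2 CPM with GFP and 551 and 372 CPM with DNp63. The GFP library with pLEX_307 was thus the one low value of the 4, and the log2 difference of 1.79 ± 0.43 (adjusted p = 0.0396) was lost without any one of the inducible libraries (adjusted p up to 0.125) and with DESeq2 (0.111). CHAC1, an enzyme that degrades glutathione, had 245 and 42.8 CPM with GFP and 439 and 193 CPM with DNp63 (log2 difference 1.82 ± 0.26; adjusted p = 0.00298). DDIT4, an inhibitor of the growth kinase complex mTORC1, had 277 and 46.4 CPM with GFP and 919 and 229 CPM with DNp63 (2.28 ± 0.18; adjusted p = 0.000129). In both DDIT4 and CHAC1 each pLEX_306 library exceeded both pLEX_307 libraries. EIF4EBP1, a brake on translation initiation, was the fourth, with 811 and 431 CPM with GFP and 760.3 and 498 CPM with DNp63. PPP1R15A, the eIF2 phosphatase subunit that ends the response, was not called.

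Of 10 enzymes of amino acid synthesis and one-carbon metabolism, 7 were called higher with pLEX_306. ASNS, asparagine synthetase, whose element is printed above, had 335 and 89.4 CPM with GFP and 351 and 180.2 CPM with DNp63 (log2 difference 1.43 ± 0.21; adjusted p = 0.00315). Both libraries with pLEX_306 were thus above both with pLEX_307, while the GFP and DNp63 libraries overlapped. CTH, which makes cysteine, had 53.6 and 7.2 CPM with GFP and 91.7 and 25.4 CPM with DNp63 (2.28 ± 0.27; adjusted p = 0.000798). PCK2, the mitochondrial phosphoenolpyruvate carboxykinase, had 289 and 55.1 CPM with GFP and 385 and 159 CPM with DNp63 (1.81 ± 0.23; adjusted p = 0.00141). Both were lowest, among all 8 libraries, in GFP cells with pLEX_307. The serine synthesis gene PSAT1 rose by 1.30 ± 0.15 (adjusted p = 0.000719), and PSPH, SHMT2 and MTHFD2, of serine synthesis and the mitochondrial folate cycle, were also called. PHGDH, the first enzyme of serine synthesis, and ALDH1L2 and CBS were not.

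Of 7 amino acid transporters, 3 were called higher with pLEX_306. These were SLC3A2, the heavy chain shared by several amino acid exchangers (0.96 ± 0.15; adjusted p = 0.00575), SLC1A4, a neutral amino acid carrier, and SLC6A9, a glycine transporter. SLC3A2 had 1472 and 656 CPM with GFP and 2578 and 1524 CPM with DNp63. The arginine and lysine carrier SLC7A1 was the one gene of the 40 that was lower with pLEX_306 in both pairs, at 781 against 818 CPM with GFP and 510.0 against 831 CPM with DNp63, and was not called. Of 7 tRNA synthetases and the tRNA exporter XPOT, 3 were called, the glycine and tryptophan enzymes GARS and WARS and XPOT. WARS had 430.4 and 176 CPM with GFP and 1473 and 689.5 CPM with DNp63 (1.19 ± 0.15; adjusted p = 0.00141). The other 5 synthetases, CARS, SARS, AARS, MARS and NARS, were not called. AARS, which holds the element printed above, had 562 and 376 CPM with GFP and 423 and 405 CPM with DNp63.

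The gene with the largest vector difference was INHBE, which encodes a secreted inhibin subunit. It had 45.8 and 5.93 CPM with GFP and 84.9 and 11.4 CPM with DNp63, a log2 difference of 2.91 ± 0.25 (adjusted p = 0.000169). Only the 2 libraries with pLEX_306 exceeded 12 CPM. STC2, a secreted glycoprotein, rose by 1.16 ± 0.15 (adjusted p = 0.00161), with 523 and 229 CPM with GFP and 1074 and 493 CPM with DNp63. The lipoprotein receptor gene VLDLR was called too, and FAM129A, a regulator of translation under stress, was not.

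**Figure D2:**
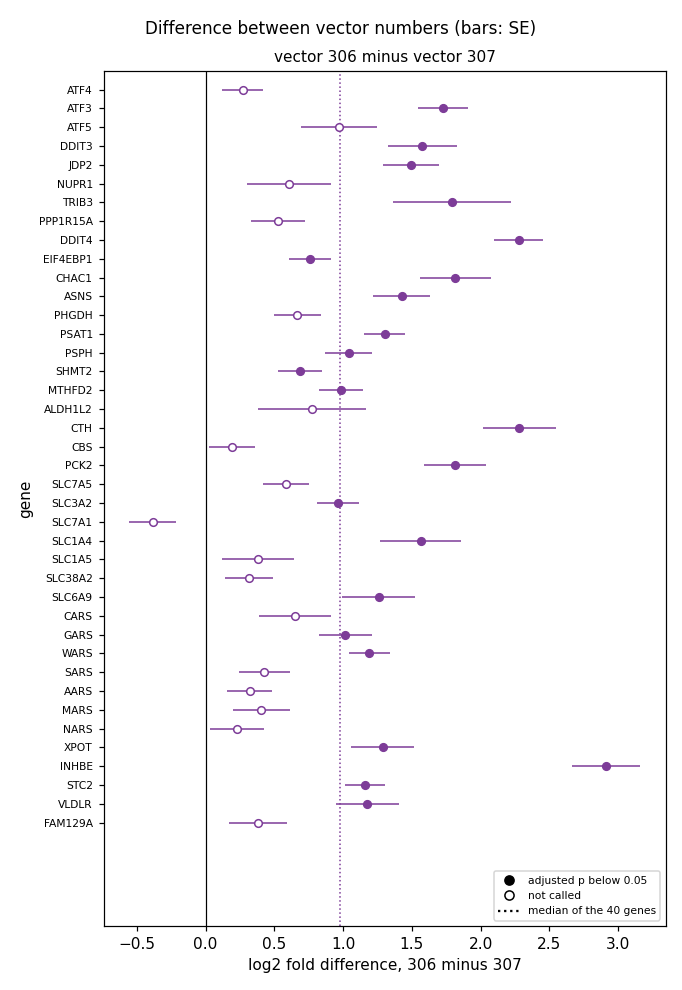
Log2 difference of each of the 40 genes between libraries with pLEX_306 and pLEX_307, adjusted for group (points: estimates, bars: SE, filled: called at an adjusted p below 0.05, dotted line: median of the 40 genes). Of the 40 estimates 39 lie above 0 and 23 are called, the largest in INHBE at 2.91.

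The pLEX_306 libraries were also the 2 with the fewest counts, 2758158 (GFP) and 3348421 (DNp63). With all libraries thinned at random to 2758158 counts, an alternative added after seeing the data, 24 of the 40 genes were called higher, where 2.38% of all tested genes were, and the median was 1.01. With a fit on the 4 constitutive libraries alone only INHBE was called (adjusted p = 0.0453), where 0.0344% of all tested genes were called higher and 0.0086% lower, and the median was 0.99. The count was 15 without either induced library, where at most 0.783% of all tested genes were called higher. EIF4EBP1, SHMT2, SLC6A9 and TRIB3 lost their call when any 1 of the inducible libraries was left out. GARS, SLC1A4, VLDLR and XPOT lost theirs when either induced library was. Leaving out a constitutive library leaves a comparison of 1 library with 1 library, with the error taken from the inducible pairs alone. It gives no check of the vector difference over replicates. On those terms the GFP pair (without either DNp63 library) gave 36 higher, where 4.76% to 4.86% of all tested genes were called higher, and among them ATF4 at 0.45. The DNp63 pair (without either GFP library) gave 25 higher, where 8.02% to 8.54% of all tested genes were, and SLC7A1 and SLC1A5 lower, where 7.24% to 7.61% were.

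The inducible libraries, which share 1 vector number, did not show such a gap. Between the 2 uninduced libraries, and between the 2 induced libraries, none of the 40 genes differed more than 2-fold, against 2.24% and 5.97% of all tested genes. Between the 2 GFP libraries 24 of the 40 were over 2-fold higher with pLEX_306 (8.05% of all tested genes), and between the 2 DNp63 libraries 12 (6.41%). The median log2 gap was 1.24 with GFP and 0.62 with DNp63. A difference between these gaps was not tested.

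Constitutive DNp63 was then compared with GFP. Of the 40 genes, 6 rose (15%) and none fell, where 4.17% of all tested genes rose and 3.99% fell. The median log2 fold change was 0.64, against 0.01 over all tested genes. A further model pairs the constitutive libraries by vector number and the inducible libraries by replicate number (a replicate block). In it 19 of the 40 rose (47.5%) and none fell, where 5.79% and 5.59% of all tested genes did, and the median was 0.72. The blocked test counts neither the gap between vectors nor that between inducible replicate numbers as replicate error. Both this comparison and the comparison of vectors rest on the same 4 libraries.

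Within the vector pairs 29 of the 40 genes were higher with DNp63 in both (32.1% of all tested genes) and 1, ATF3, was lower in both (31% of all tested genes). Over 2-fold higher in both pairs were 9 genes, ATF5, DDIT3, JDP2, NUPR1, PPP1R15A, DDIT4, WARS, STC2 and FAM129A (22.5%, against 4.88% of all tested genes). The median difference was 0.42 within the pLEX_306 pair and 1.06 within the pLEX_307 pair, and 36 of the 40 genes had the larger difference in the pLEX_307 pair (51.4% of all tested genes). By arithmetic, this is the same as a larger gap of pLEX_306 over pLEX_307 with GFP than with DNp63, and not a separate result. When each group was taken as a whole, both DNp63 libraries exceeded both GFP libraries for 10 of the 40 genes (25%), close to the 22.4% of all tested genes for which this held, and the reverse held for none of the 40 and 22% of all tested genes.

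**Figure D3:**
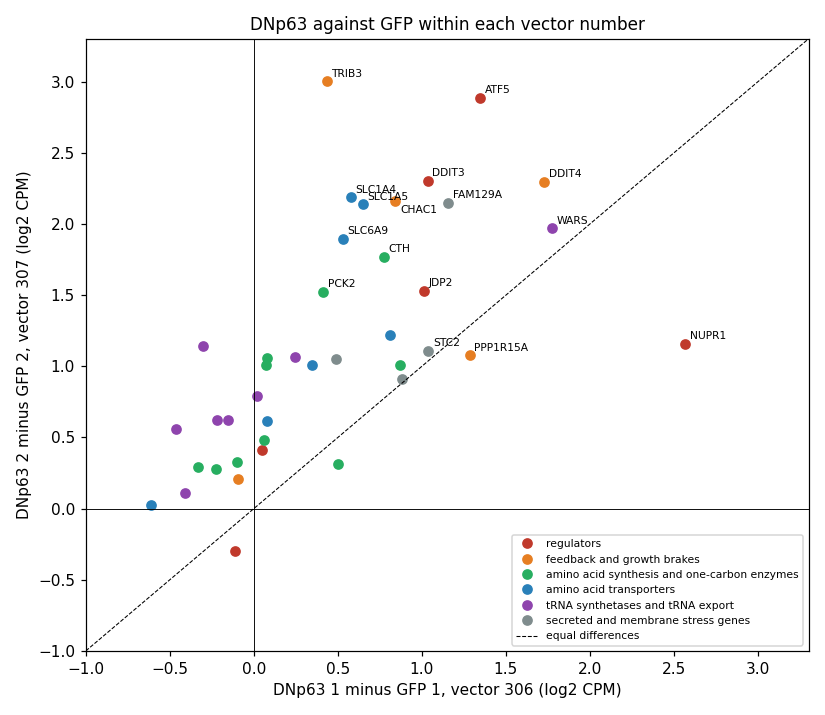
Each of the 40 genes as a point, with the DNp63 minus GFP difference in log2 CPM within pLEX_306 (x axis) and within pLEX_307 (y axis), coloured by role, with a dashed line where both are equal. Of the points 36 lie above the line, TRIB3 furthest, and NUPR1, PPP1R15A, PSPH and ATF3 lie below it.

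Of the 6 regulators, 2 rose without the block and 4 with it. NUPR1 had 50.2 and 56.5 CPM with GFP and 299 and 127 CPM with DNp63, where both DNp63 libraries exceeded every other library, and its log2 fold change was 1.99 ± 0.38 (SE, with n = 2 in each group; adjusted p = 0.00976). ATF5, an ATF4 relative that is itself regulated by translation, had 161 and 46.4 CPM with GFP and 409 and 345 CPM with DNp63 (1.88 ± 0.42; adjusted p = 0.0219). DDIT3 had a log2 fold change of 1.38 ± 0.55 that did not pass the test (adjusted p = 0.159) and did with the block (1.65 ± 0.28; adjusted p = 0.00188). JDP2 was likewise called with the block only. ATF4 mRNA was not called (0.21 ± 0.19; adjusted p = 0.557), nor was ATF3.

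Of the 5 genes that curb the response or slow growth, 1 rose without the block and 4 with it. PPP1R15A had 68.7 and 51.5 CPM with GFP and 168 and 109 CPM with DNp63, with no overlap between the groups (1.21 ± 0.27; adjusted p = 0.0218). CHAC1 (1.15 ± 0.60; adjusted p = 0.291) and TRIB3 (1.04 ± 0.66; adjusted p = 0.396) were called with the block only, CHAC1 at 1.48 ± 0.28 (adjusted p = 0.00389) and TRIB3 at 1.68 ± 0.44 (adjusted p = 0.0275). DDIT4 was the other gene called with the block, and EIF4EBP1 was called in neither fit. In TRIB3, CHAC1 and DDIT4 the GFP library with pLEX_306 exceeded the DNp63 library with pLEX_307.

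None of the 10 metabolic enzymes rose without the block, which is near the 4.17% of all tested genes that did. Of their 10 estimates 9 were above 0, with a median of 0.39. PSAT1, CTH and PCK2 rose with the block, where 5.79% of all tested genes did. ASNS was called in neither, with a log2 fold change of 0.33 ± 0.48 (adjusted p = 0.75): its level was 335 and 351 CPM in GFP and DNp63 cells with pLEX_306, and 89.4 and 180.2 CPM with pLEX_307. Of the transporters SLC1A5, the main glutamine carrier, rose without the block (1.30 ± 0.30; adjusted p = 0.0257), at 2384 and 1092 CPM with GFP and 3740.3 and 4809 CPM with DNp63. SLC3A2, SLC1A4 and SLC6A9 were added with the block. SLC7A5, the large neutral amino acid exchanger that pairs with SLC3A2, did not overlap between groups, at 2985 and 1583 CPM with GFP and 3790.3 and 3181 CPM with DNp63, and was called in neither fit. WARS was the one synthetase that rose (1.84 ± 0.41; adjusted p = 0.0208), in either fit. It is also known as an interferon-induced gene.

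FAM129A had the smallest p of the 40 genes. It was at 177 and 94.9 CPM with GFP and 395 and 422 CPM with DNp63, so that the DNp63 libraries were close to each other whatever the vector number, and its log2 fold change was 1.60 ± 0.26 (adjusted p = 0.00451). It was called with each library left out in turn. STC2 and INHBE were called with the block only.

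**Figure D4:**
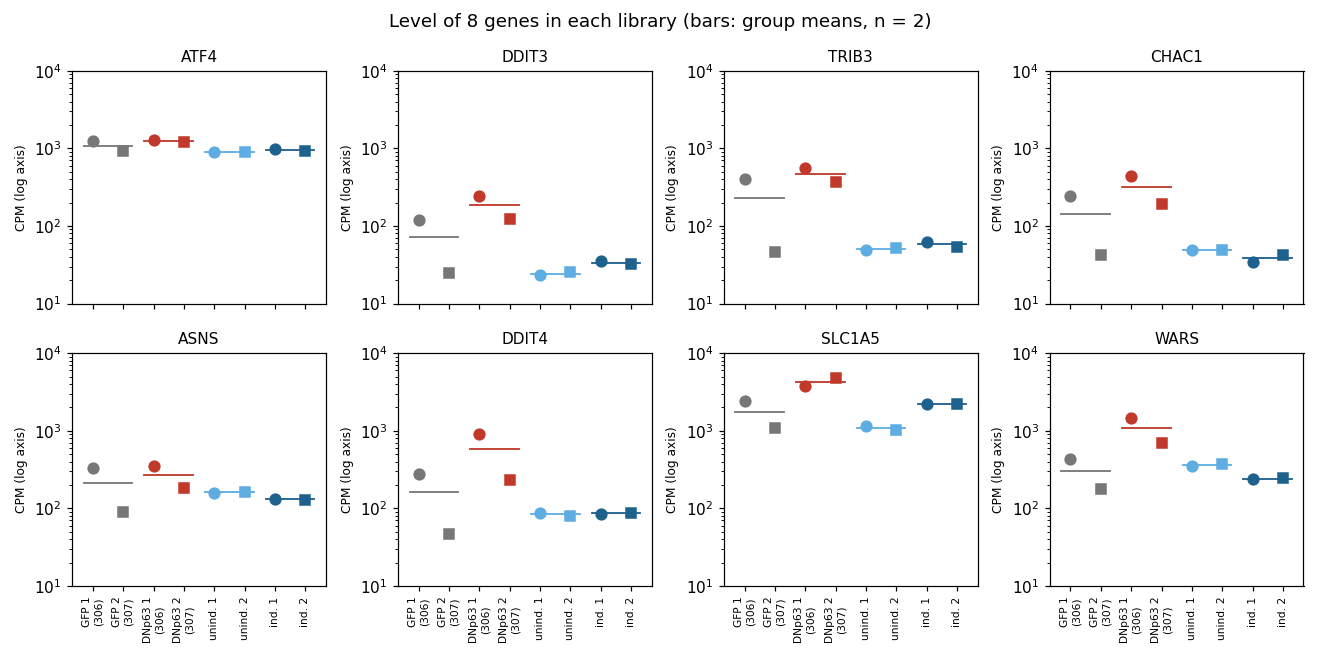
Level of 8 of the genes in each library, in CPM on a log axis (circles: replicate 1, squares: replicate 2, bars: group means, n = 2). For DDIT3, TRIB3, CHAC1, ASNS and DDIT4 the GFP library with pLEX_307 is low, near or below the inducible libraries, while SLC1A5 and WARS are highest in both DNp63 libraries.

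The constitutive result depended on single libraries. Where 1 of a group is left out, the remaining one is assumed to vary like the other groups. Without the GFP library of pLEX_307, 2 genes were called higher (ATF5 and FAM129A), where 1.62% of all tested genes were, and the median was 0.03. Without the GFP library of pLEX_306, 24 were called, where 4.22% of all tested genes were, and the median was 1.49. The count was 4 without the DNp63 library of pLEX_306 (4.36% of all tested genes) and 3 without either induced library (2.61% to 2.64%). Without the DNp63 library of pLEX_307 it was 11 (5.66% of all tested genes), with SLC7A1 called lower (5.61%), and in a fit on the 4 constitutive libraries alone it was 1 (NUPR1; adjusted p = 0.0486), where 1.65% of all tested genes rose and 0.714% fell.

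In the inducible system the glutamine carrier SLC1A5 was higher in both induced libraries, by 1.03 ± 0.30 on the log2 scale, and most of the 40 genes had smaller differences of either sign. In the fit over all 8 libraries none was called, where 0.236% of all tested genes rose and 0.0488% fell. At an unadjusted p below 0.05 there was 1 gene, SLC1A5 (6.04% of all tested genes passed), and DESeq2 also called none. The median log2 difference was −0.04, with 15 values above and 25 below 0. Both induced libraries were above both uninduced libraries for 10 of the 40 genes (25%, against 22.9% of all tested genes) and below them for 14 (35%, against 24%). SLC1A5 had 1137 and 1033 CPM uninduced and 2204 and 2213 CPM induced, about the level of GFP cells with pLEX_306, with a log2 difference of 1.03 ± 0.30 (SE, with n = 2 in each group; adjusted p = 0.346). It was called without either GFP library (adjusted p from 0.0324) and with no low-count filter (adjusted p = 0.000109). The next smallest p-values were those of SLC7A5 (0.44 ± 0.26; adjusted p = 0.939) and WARS (−0.58 ± 0.40; adjusted p = 0.958).

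A fit on the 4 inducible libraries alone uses only their own, smaller spread, which may be technical, so its p-values may not measure a spread between cultures. It called 3 genes higher, SLC1A5 (1.03 ± 0.09; adjusted p = 5.92e-10), SLC7A5 (0.45 ± 0.09; adjusted p = 0.000851) and SLC3A2 (0.37 ± 0.09; adjusted p = 0.00894), where 3.63% of all genes tested in that fit were higher. It called 2 lower, WARS (−0.58 ± 0.10; adjusted p = 0.000136) and ATF3 (−0.70 ± 0.20; adjusted p = 0.0237), where 2.8% were lower. WARS, at 351 and 374 CPM uninduced and 239 and 245 CPM induced, thus had the opposite sign to its constitutive value. SLC7A5 was at 1849.5 and 1624 CPM uninduced and 2334 and 2386 CPM induced, and SLC3A2 at 646 and 608 against 819 and 795 CPM. ATF3 was at 28.0 and 32.5 CPM uninduced and 19.8 and 17.3 CPM induced.

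The central genes of the response were close to each other in all 4 inducible libraries. DDIT3 had 23.1 and 25.3 CPM uninduced and 35.7 and 31.9 CPM induced (log2 difference 0.48 ± 0.56; adjusted p = 0.995). TRIB3 had 49.5 and 52.3 against 61.8 and 54.3 CPM (0.19 ± 0.67; adjusted p = 0.995). CHAC1 had 48.9 and 49.3 against 34.2 and 42.7 CPM (−0.36 ± 0.62; adjusted p = 0.995). Each of these lay near the GFP library with pLEX_307 and far below the DNp63 libraries. ASNS was lower in both induced libraries, at 158 and 163 against 132 and 128 CPM (−0.30 ± 0.48; adjusted p = 0.995). NUPR1 overlapped between the groups, at 28.2 and 21.0 against 22.2 and 35.6 CPM (0.23 ± 0.38; adjusted p = 0.995), and ATF4 was at 901 and 886 against 979 and 930.4 CPM (0.10 ± 0.19; adjusted p = 0.995).

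**Figure D5:**
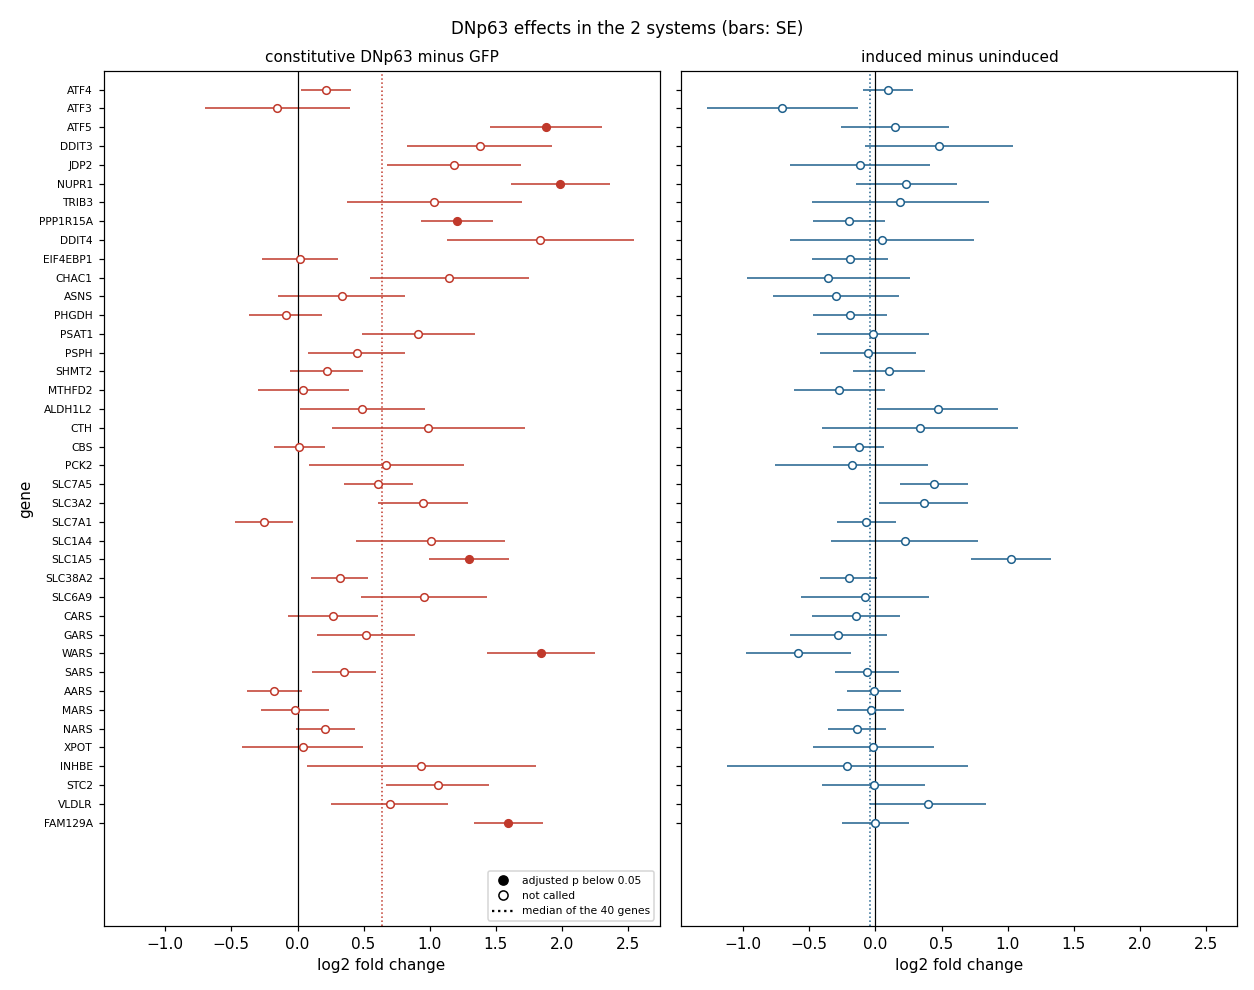
Log2 fold change of each of the 40 genes with constitutive DNp63 against GFP (left) and with induced against uninduced DNp63 (right), from the fit over all 8 libraries without a block (points: estimates, bars: SE, filled: called at an adjusted p below 0.05, dotted line: median of the 40 genes). The left panel has its median at 0.64 and 6 filled points, the right panel its median at −0.04 and none.

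The induced effect minus the constitutive effect had a median of −0.57 over the 40 genes and −0.01 over all tested genes, with 38 values below 0. None of the 40 was called, where 0.293% of all tested genes were called higher and 0.252% lower, while 5 had an unadjusted p below 0.05 (12.2% of all tested genes). The smallest p-values were those of FAM129A (−1.60 ± 0.36; adjusted p = 0.1), WARS (−2.42 ± 0.57; adjusted p = 0.109) and PPP1R15A (−1.41 ± 0.38; adjusted p = 0.161). These 3, and ATF5, CHAC1 and DDIT4, were called lower with the replicate block, where 1% of all tested genes were, with CHAC1 at −1.84 ± 0.39 (adjusted p = 0.0305). DESeq2 called 4 lower, FAM129A, WARS, PPP1R15A and NUPR1, where it called 0.983% of all tested genes lower. NUPR1 had −1.75 ± 0.53 (adjusted p = 0.206) in the edgeR fit, CHAC1 −1.51 ± 0.86 (0.535), DDIT3 −0.90 ± 0.78 (0.712), TRIB3 −0.85 ± 0.94 (0.784), ASNS −0.63 ± 0.67 (0.772) and ATF4 −0.12 ± 0.27 (0.913). For TRIB3, ASNS and ATF4 the sign turned when the GFP library with pLEX_307 was left out. TP63 was lower in induced than in constitutive DNp63 cells, and the systems also differ in vector and drug.

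Averaged over both systems, 3 of the 40 genes rose (7.5%) and none fell, where 3.26% of all tested genes rose and 2.41% fell, and 12 rose with the replicate block, where 4.67% of all tested genes rose and 3.78% fell. The 3 were SLC1A5 (1.16 ± 0.21; adjusted p = 0.0099), FAM129A (0.80 ± 0.18; adjusted p = 0.0288) and NUPR1 (1.11 ± 0.27; adjusted p = 0.0355). SLC1A5 was the one of them with a value of similar size in both systems. Neither of the others was called in the inducible system. None of the 3 calls was kept without uninduced replicate 2 or without either induced library. FAM129A and NUPR1 were also lost without uninduced replicate 1, where only SLC1A5 was called, and NUPR1 without either GFP library. The averages of DDIT3 (0.93 ± 0.39; adjusted p = 0.227), TRIB3 (0.61 ± 0.47; 0.544), CHAC1 (0.40 ± 0.43; 0.691), ATF4 (0.15 ± 0.13; 0.596) and ASNS (0.02 ± 0.34; 0.99) did not pass the test. DDIT3 did with the block, at 1.06 ± 0.20 (adjusted p = 0.00432).

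Between the control groups, uninduced minus GFP, the median was −0.50 over the 40 genes, with 38 values below 0, and −0.01 over all tested genes. None of the 40 was called by edgeR or DESeq2. At an unadjusted p below 0.05 there were 11 in edgeR (9.1% of all tested genes) and 9 in DESeq2, where that share was not computed. One gene of all those tested was called lower (0.00813%) and none higher. Both uninduced libraries were below both GFP libraries for 10 of the 40 genes (25%), close to the 21.9% of all tested genes, and above them for none of the 40 and 22% of all tested genes. The value turned on the GFP library with pLEX_306: without it the median was 0.18, with ATF5 called higher (0.0156% of all tested genes), and without the GFP library with pLEX_307 it was −1.03, with DDIT3, SLC6A9 and TRIB3 called lower (0.256%). With both GFP libraries TRIB3 had −2.14 ± 0.69 (adjusted p = 0.398), DDIT3 −1.54 ± 0.57 (0.468), CHAC1 −1.53 ± 0.62 (0.49) and NUPR1 −1.13 ± 0.38 (0.419). SLC38A2, a glutamine and alanine carrier, had −0.77 ± 0.22 (0.319), ASNS −0.39 ± 0.48 (0.853) and ATF4 −0.27 ± 0.19 (0.718). With the replicate block ATF3 was called lower (adjusted p = 0.0464), where 0.0406% of all tested genes were called higher and 0.114% lower.

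Other genes of the pathway were read from lists that are not among the 40. Of 15 tested genes among 16 other reported ATF4 targets, 8 were called higher with pLEX_306 (2.39% of all tested genes) and none lower (1.58%). CEBPB, a C/EBP partner factor, had 249 and 28.0 CPM with GFP and 389 and 115 CPM with DNp63 (2.41 ± 0.28; adjusted p = 0.000719). GDF15, a secreted stress hormone, rose by 1.50 ± 0.20 (adjusted p = 0.00219), the alanine transaminase GPT2 by 1.07 ± 0.15 (0.00315) and the growth factor VEGFA by 1.17 ± 0.15 (0.00176). With constitutive DNp63 1 of the 15 rose, VEGFA (1.60 ± 0.40; adjusted p = 0.0358), where 4.17% of all tested genes did, and none fell, with 15 values above 0. In the inducible system none was called, nor had any an unadjusted p below 0.05 (6.04% of all tested genes passed).

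Upstream of ATF4, 13 genes for eIF2 kinases, subunits of eIF2 and eIF2B, and the phosphatase subunit PPP1R15B were read, and none passed the test in any comparison. At most 4.17% of all tested genes were called in 1 direction in any of them. A count of none of 13 is near that share and is no result about these genes. At an unadjusted p below 0.05 there were 3 for vector number and 2 for constitutive DNp63. The share of all tested genes at that level was not computed for these comparisons, so such counts cannot be read as high or low. Their median vector difference was 0.05. Other tRNA synthetases had small median vector differences, 0.15 over 13 cytosolic genes, of which TARS (0.76 ± 0.16; adjusted p = 0.0245) and YARS (0.58 ± 0.15; 0.0472) rose, and 0.06 over 17 mitochondrial genes, of which none was called and 2 had an unadjusted p below 0.05. With constitutive DNp63 the synthetase genes VARS (−1.06 ± 0.18; adjusted p = 0.00522) and QARS (−0.97 ± 0.24; 0.0338) fell, and of the mitochondrial genes TARS2 (−0.95 ± 0.20; 0.0159). VARS also fell in the averaged comparison (−0.59 ± 0.12; 0.0206). Of 6 tested genes of the cytosolic folate cycle, TYMS (−0.86 ± 0.19; adjusted p = 0.0308) and MTR (−0.79 ± 0.18; 0.034) were lower with pLEX_306, and TYMS (−1.24 ± 0.33; 0.0445) and MTHFD1 (−0.64 ± 0.18; 0.0489) with constitutive DNp63. TYMS, thymidylate synthase, is a gene of DNA replication. Of 6 genes of the mitochondrial unfolded protein response HSPA9 alone was called, higher with pLEX_306 (0.98 ± 0.19; adjusted p = 0.0174).

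The 14 ER chaperone and folding genes of the other arms of the unfolded protein response differed in pattern from the 40 genes in the DNp63 libraries. None was called in any of the 6 comparisons, where at most 4.17% of all tested genes were called in 1 direction. At an unadjusted p below 0.05 there were 3 for uninduced minus GFP, where 9.1% of all tested genes passed. There was 1 for vector number, and 2 each for constitutive DNp63 and the average, where that share was not computed. Their median level relative to each gene's mean was highest in the DNp63 library with pLEX_307, at 1.51, where the 40 genes stood at 0.38, and −0.18 in the DNp63 library with pLEX_306, where the 40 genes stood at 1.14. In the GFP libraries it was 0.56 with pLEX_306 and −0.48 with pLEX_307, near the 0.63 and −0.62 of the 40 genes. All 14 estimates were above 0 for constitutive DNp63, with a median of 0.79 (0.64 for the 40 genes). All 14 were below 0 for uninduced minus GFP, with a median of −0.67 (−0.50 for the 40 genes). For vector number 4 were above and 10 below 0, with a median of −0.48 (0.98 for the 40 genes). HSPA5, the chaperone BiP, chosen after its values were seen, had 1939 and 394 CPM with GFP, 1427 and 4192 CPM with DNp63, and 374 to 419 CPM in the inducible libraries. The part of these genes in the levels of the 40 was not tested.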

How the data were processed

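Per the labels' protocols, poly-adenylated RNA of 8 LK2 libraries was sequenced as paired 38 bp reads. The deposited table holds each gene as a raw count. Per the submitters' processing notes the tools were TopHat2 2.1, HTSeq, SAMtools and DESeq2, with build hg19. The annotation and the strand setting of the counting were not given in the sources used here. Genes are named by the table's symbols, and reads of overlapping antisense genes cannot be told apart.

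Genes were kept by edgeR's filterByExpr with a minimum count of 10 and scaled with TMM. They were fitted in edgeR 4.0.16 (R 4.3.3, quasi-likelihood, legacy estimates) with 1 mean per group and 1 spread for all 8 libraries. The spread between vector numbers thus enters every test of that fit. The comparison of vectors added 1 term for vector number, which takes the mean gap between vectors out of the spread. The replicate block does so too, and also has a term for replicate number within the inducible libraries. SE is the log2 fold change divided by the root of the F statistic. All tests were two-sided. Per-library log2 levels used a prior count of 2. In a single library 1 count equals 0.0972 to 0.369 CPM. The alternatives were DESeq2 1.42.0, its size factors, no low-count filter, a replicate block, each system alone, each library left out, and thinned counts. The scripts were tested on simulated data.

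GFP and DNp63 libraries of the same number share a vector number in the labels, which is the source of the pairing. Across 12303 genes their deviations from the group means had a correlation of 0.22 in the constitutive and −0.0334 in the inducible system, where libraries share only a number.

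The genes and lists were chosen with earlier results of these data known. Log2 values with SE are given for ATF4, DDIT3, ASNS, TRIB3, CHAC1 and NUPR1 in each comparison, for called genes up to the 12 with the smallest p, or else for the 3 with the smallest p. Of the other lists up to 4 called genes are named per comparison.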

Additional observations from a re-analysis of the deposited data

How the results depend on the processing

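Depth limits weakly expressed genes most, and with 2 libraries per group no result has more than 4 residual degrees of freedom. Scaling by DESeq2 size factors and thinning changed no call count by over 1.5 times. The median log2 difference of the 40 genes moved by 0.517 or more only where a library was left out. That limit is the SD of the per-library median within groups. It includes the gap between vectors, so it is wide and a smaller move is no sign of stability. Without the low-count filter, genes of the 40 called higher were 19 with constitutive DNp63, 1 in the inducible system and 13 on average, where 4.65%, 0.843% and 3.94% of all genes were. Genes called lower were then 9 for the induced minus the constitutive effect and 12 for uninduced minus GFP, where 1.34% and 0.975% were. With the replicate block, genes called higher were 19 with constitutive DNp63 and 12 on average, and genes called lower were 6 for the difference between the effects and 1 for uninduced minus GFP. The block changed no count by over 1.5 times for the inducible system or the vectors. DESeq2 called 4 lower for the difference between the effects. With only 1 system's libraries, 1 was called higher with constitutive DNp63, 3 higher and 2 lower with induced DNp63, and 1 higher with pLEX_306. The cause of these changes was not tested. A fit on 4 libraries has fewer degrees of freedom and takes its spread from those libraries alone, which was smaller in the inducible system. The ASNS average turned to −0.0017 without the filter.

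When each library was left out in turn, genes called higher ranged from 2 to 24 with constitutive DNp63, 0 to 1 induced, 0 to 13 on average, 0 to 1 for uninduced minus GFP and 15 to 36 for pLEX_306. Genes called lower ranged from 0 to 1 with constitutive DNp63, 0 to 9 for the difference between the effects, 0 to 3 for uninduced minus GFP and 0 to 2 for the vectors. The median ranged from 0.0333 to 1.49 with constitutive DNp63, −1.42 to −0.0178 for the difference and −1.03 to 0.18 for uninduced minus GFP. Log2 values that changed sign were those of ASNS (−0.35 to 1.57 constitutive, −0.33 to 0.63 on average, −1.87 to 0.0497 for the difference, −1.06 to 0.84 between controls) and TRIB3 (−3.13 to 0.0261 for the difference, −3.00 to 0.14 between controls). CHAC1 ranged from −0.0048 to 1.26 on average and −2.32 to 0.20 between controls. ATF4 ranged from −0.0081 to 0.45 constitutive and −0.36 to 0.10 for the difference. NUPR1 ranged from −0.14 to 0.54 induced and −0.17 to 1.25 for the vectors.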
